A study of Mus musculus with 10 samples.

Results

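Fibroblasts and pericytes are the connective tissue and vessel wall cells of the mammary gland, and 34 of their marker genes were followed through sorted mammary cells. The genes were taken by symbol from a fixed list of fibroblast, matrix and pericyte markers that leaves the collagens out, and each symbol was matched to its Ensembl mouse gene in GENCODE M21 on GRCm38. All 34 were found among the 49671 genes counted in each library. Total RNA of cells sorted from mouse mammary gland by flow cytometry was sequenced in 10 libraries, 2 for each of 5 populations. Of the populations, basal (BC) and luminal (LC) cells have no treatment given, with a wild-type label on replicate 2 of either. The others, called Tomato basal (TBC), Tomato hybrid (THC) and Tomato luminal (TLC), all came from glands in which luminal cells had been ablated. Tomato names a fluorescent protein, red in colour, that marks cells and can mark their descendants. Mouse line, promoter, age and antibodies are not among the labels. Ablation and Tomato marking therefore cannot be told apart wherever TBC, THC or TLC is set against BC or LC. Nothing states that replicates came from separate animals, so each p-value measures the spread between these libraries, which may be technical.

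Mammary epithelium is a bilayer of inner luminal cells and outer basal cells, also called myoepithelial cells, which rest on a basement membrane. Fibroblasts around it secrete elastic fibres, in which elastin is laid on a scaffold of fibrillin and fibulins and cross-linked by lysyl oxidases, and small leucine-rich proteoglycans, which coat collagen fibrils. Pericytes wrap capillaries and are known by PDGF receptor beta, the NG2 proteoglycan and the G-protein regulator Rgs5. Several of these genes are known also from basal epithelial cells, which share contractile and matrix functions with mural cells. In bulk libraries, fewer cells of a type and less RNA per cell cannot be told apart.

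RefSeq promoter windows on GRCm38.p6 were at hand for 22 of the 34 genes, 23 windows in all. The 250 bases before each start were searched on both strands for 4 motifs, namely the GC box GGGCGG, the AP-1 motif TGANTCA, the TEAD motif GGAATG and the TATA motif TATAAA. Of 32851 windows of the same length over all genes, 32.7% held the GC box, 6.75% the AP-1 motif, 12.6% the TEAD motif and 12.4% the TATA motif. The windows of the 34 genes held them in 8, 1, 5 and 5 of 23 cases. Vtn, Ogn, Aspn, Dpp4 and Igfbp6 had the TATA match. A match is a description of the letters and does not show a binding site. Shown here are 3 genes that were higher in TLC than in LC, a fibulin, a protease inhibitor relative and a basement membrane linker, and Dpp4, which ran the other way between lineages. Each stretch is written 5′ to 3′ on the gene's strand with motif matches in capitals, and ends before the first annotated exon base.
Fbln1, chr15:85205699-85205948, plus strand: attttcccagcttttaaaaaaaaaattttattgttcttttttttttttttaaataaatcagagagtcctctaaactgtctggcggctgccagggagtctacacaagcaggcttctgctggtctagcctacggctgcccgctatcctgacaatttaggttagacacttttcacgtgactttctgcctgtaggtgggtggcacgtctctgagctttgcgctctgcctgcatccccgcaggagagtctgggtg
Serpinf1, chr11:75422702-75422873, minus strand: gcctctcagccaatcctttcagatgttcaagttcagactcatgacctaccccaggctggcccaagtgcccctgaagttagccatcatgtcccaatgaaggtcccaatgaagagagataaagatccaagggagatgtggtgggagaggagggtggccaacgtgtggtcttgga
Nid1, chr13:13437352-13437550, plus strand: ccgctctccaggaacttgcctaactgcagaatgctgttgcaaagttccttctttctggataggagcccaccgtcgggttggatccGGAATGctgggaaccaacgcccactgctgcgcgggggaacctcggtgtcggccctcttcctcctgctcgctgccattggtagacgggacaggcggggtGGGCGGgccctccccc
Dpp4, chr2:62412232-62412481, minus strand: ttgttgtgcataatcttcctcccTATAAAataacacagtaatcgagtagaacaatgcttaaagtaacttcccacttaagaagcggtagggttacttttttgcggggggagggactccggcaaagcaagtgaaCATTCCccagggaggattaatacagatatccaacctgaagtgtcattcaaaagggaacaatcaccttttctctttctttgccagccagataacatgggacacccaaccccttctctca
The capitals in Nid1 are a TEAD match and a GC box, and those in Dpp4 a TATA match and a TEAD match on the opposite strand. None of the 4 motifs occurred in the Fbln1 and Serpinf1 stretches shown, although a further RefSeq start of Fbln1 had a GC box before it.

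Gene counts per library ran from 2757773 in THC replicate 1 to 13685674 in LC replicate 2. Levels are given as CPM, read counts scaled to a common library size with TMM factors. The epithelial labels matched their markers, with Krt5 at 766 and 1399 CPM in BC against 11.5 and 5.73 CPM in LC, and Krt8 at 2380 and 1766 CPM in LC against 416 and 316 CPM in BC. Endothelial genes were present throughout, and the summed level of 12 of them was 701 and 700.4 CPM in THC, 469 and 122 CPM in BC, 232 and 204 CPM in TBC, 254 and 56.7 CPM in LC, and 103 and 115 CPM in TLC. The fibroblast collagen Col1a1 reached 244 and 718 CPM in THC but only 20.1 and 34.5 CPM in BC. Kcnj8, a potassium channel subunit that defines pericytes, stayed at or below 5.80 CPM in all 10 libraries. Adipoq of fat cells had 3 counts or fewer in every library.

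**Figure D1:**
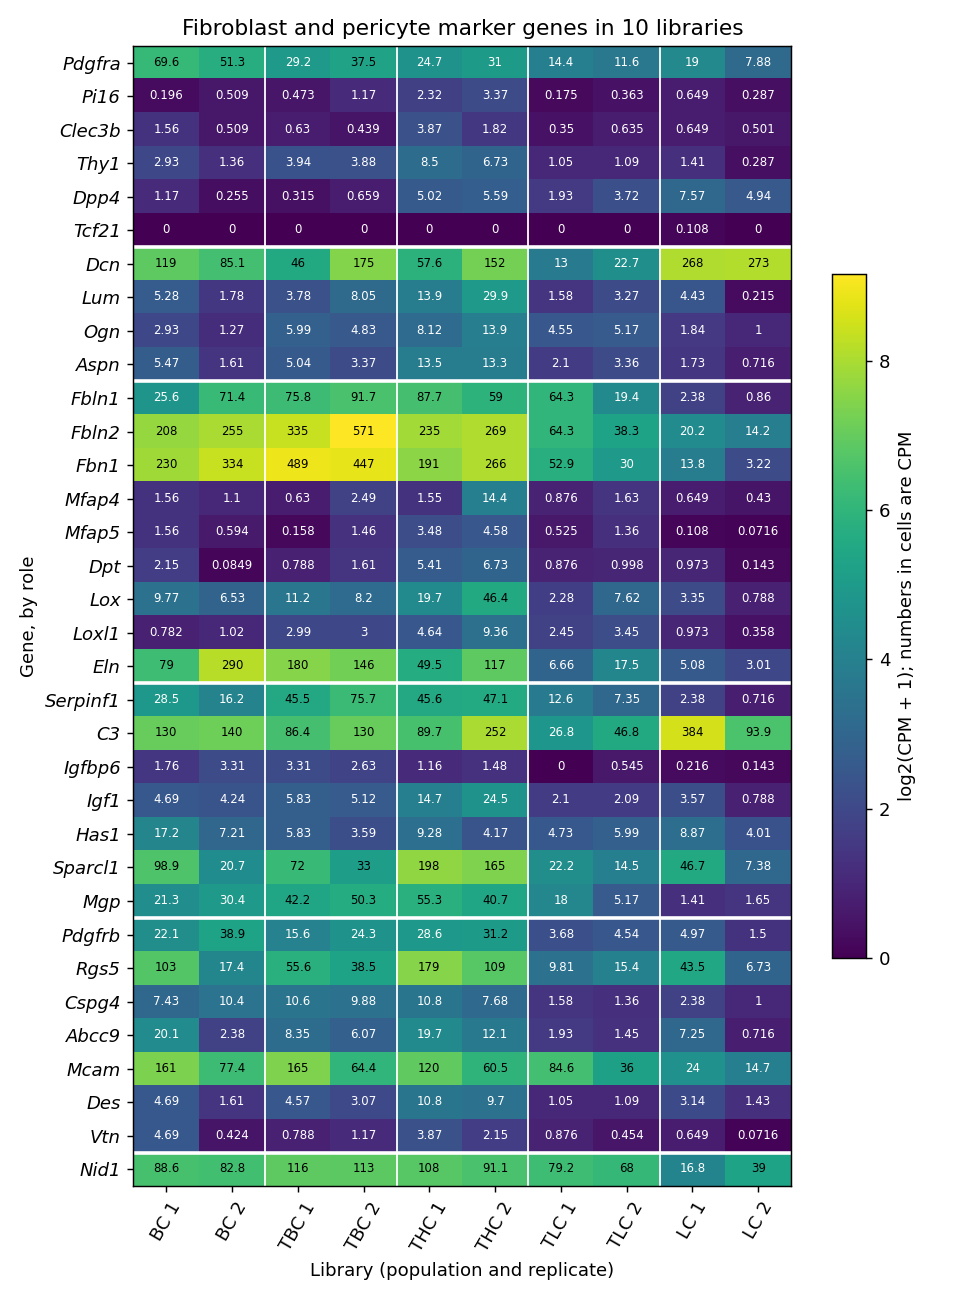
Level of the 34 genes in each of the 10 libraries. Colour is log2(CPM + 1), the number in each cell is CPM, and white lines divide roles and populations. Fbln2 and Fbn1 are the brightest rows in BC replicate 1 and in both TBC libraries, while Dcn and C3 are the brightest in LC.

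By summed level, 25 fibroblast genes made up 970 and 1304 CPM in BC, 1379 and 1775 CPM in TBC, 951 and 1419 CPM in THC, 298 and 240.2 CPM in TLC, and 753 and 414 CPM in LC. Both TLC libraries lay below all 8 others. The composition of that sum differed between LC and the rest. The proteoglycan Dcn and the complement protein C3 held 86.5% and 88.8% of it in LC, against 9.6% to 28.9% in the other libraries. The microfibril genes Fbn1 and Fbln2 held 4.52% and 4.21% in LC and 28.4% to 59.7% elsewhere. The remaining 9 genes, of pericytes, mural cells and basement membrane, summed to 511 and 252 CPM in BC, 449 and 294 CPM in TBC, 679 and 489 CPM in THC, 205 and 143 CPM in TLC, and 149 and 72.6 CPM in LC. The sum of 10 pericyte markers outside the 34 genes ran in another order, with 75.5 and 36.6 CPM in BC, 59.9 and 53.3 CPM in TBC, 204 and 196 CPM in THC, 266 and 370.0 CPM in TLC, and 277 and 284 CPM in LC. Most genes of that list did not follow its sum. In THC against TLC 7 of the 9 tested had positive log2 values, with a median of 1.8. In LC against BC 3 of 9 did, with a median of −0.26.

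The population with the highest mean was THC for 18 genes, TBC for 7, BC for 5 and LC for 3, namely Dcn, Dpp4 and C3. No gene had its highest mean in TLC. The lowest mean fell in LC for 20 genes, in TLC for 11 and in TBC for 2. Tcf21, a mesenchymal transcription factor on chromosome 10, had a single count, in LC replicate 1, and was too low to test. Its count of 0 in the other libraries allows up to 3 counts, or 0.202 to 1.16 CPM. Per kilobase of exon (RPKM), the leading genes were Fbln2 at 36.3 and Mcam at 35.6 in BC, Fbln2 at 71.1 and Mgp at 39.0 in TBC, and Sparcl1 at 61.9 and Mgp at 40.4 in THC. In TLC they were Mcam at 18.0 and Nid1 at 10.6 RPKM, and in LC C3 and Dcn, at 46.4 RPKM each.

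Among the receptors and surface proteins, Pdgfra (chr5:75152292-75198215), the PDGF receptor alpha that marks fibroblasts, stood at 69.6 and 51.3 CPM in BC, 29.2 and 37.5 in TBC, 24.7 and 31.0 in THC, 14.4 and 11.6 in TLC, and 19.0 and 7.88 in LC. Both BC libraries were above all others, TBC and THC overlapped, and so did TLC and LC. Dpp4 (chr2:62330073-62412231), a surface peptidase known as a marker of fibroblast progenitors, stood at 1.17 and 0.255 CPM in BC, 0.315 and 0.659 in TBC, 5.02 and 5.59 in THC, 1.93 and 3.72 in TLC, and 7.57 and 4.94 in LC. BC and TBC were thus below every other library, on 2 to 9 counts each. Thy1, a GPI-anchored surface glycoprotein, ranged from 0.287 CPM in LC replicate 2 to 8.5 CPM in THC replicate 1. Pi16 and Clec3b, markers of adventitial fibroblasts, did not exceed 3.37 and 3.87 CPM, and each peaked in THC.

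Of the small leucine-rich proteoglycans, Dcn (decorin, chr10:97479609-97518143) differed most between populations. It stood at 119 and 85.1 CPM in BC, 46 and 175 in TBC, 57.6 and 152 in THC, 13.0 and 22.7 in TLC, and 268 and 273 in LC. LC was above all others and TLC below all others, while BC, TBC and THC overlapped. Lum, encoding lumican, lies 46984 bases from Dcn on the same strand, yet had 751 counts over all libraries against 13317 for Dcn. Lum ranged from 0.215 CPM in LC replicate 2 to 29.9 CPM in THC replicate 2. Ogn and Aspn, which encode osteoglycin and asporin, lie on chromosome 13 with Omd between them, and both are inside Cenpp, a gene on the opposite strand. Ogn ranged from 1.0 to 13.9 CPM and Aspn from 0.716 to 13.5 CPM, each with its highest values in THC and its lowest in LC replicate 2. How strand was treated in the counting is not stated, so reads of overlapping antisense genes cannot be told apart.

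The elastic fibre genes were led by Fbn1 and Fbln2. Fbn1 (fibrillin 1, chr2:125300594-125507993) stood at 229.7 and 334 CPM in BC, 489 and 447 in TBC, 191 and 266 in THC, 52.9 and 30.0 in TLC, and 13.8 and 3.22 in LC. The order from TBC to TLC to LC had no overlap, while BC and THC overlapped. The opposite-strand gene Gm9913, with 763 counts in all, shares 20.1% of the exonic bases of Fbn1. Fbln2 (fibulin 2, chr6:91212455-91272540) stood at 208 and 255 CPM in BC, 335 and 571 in TBC, 235 and 269 in THC, 64.3 and 38.3 in TLC, and 20.2 and 14.2 in LC. Again TBC was highest, BC and THC overlapped, and LC was lowest.

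Fbln1 (fibulin 1, chr15:85205949-85286535) stood at 25.6 and 71.4 CPM in BC, 75.8 and 91.7 in TBC, 87.7 and 59.0 in THC, 64.3 and 19.4 in TLC, and 2.38 and 0.86 in LC. LC alone stood apart from the other populations, which overlapped one another in part. Eln (elastin, chr5:134702593-134747323) stood at 79.0 and 290.0 CPM in BC, 179.5 and 146 in TBC, 49.5 and 117 in THC, 6.66 and 17.5 in TLC, and 5.08 and 3.01 in LC. Both luminal populations were below the other 3, and the BC libraries differed from each other more than the TBC libraries did. Loxl1 (chr9:58287738-58313186), a lysyl oxidase known for elastic fibre repair, stood at 0.782 and 1.02 CPM in BC, 2.99 and 3.0 in TBC, 4.64 and 9.36 in THC, 2.45 and 3.45 in TLC, and 0.973 and 0.358 in LC. BC and LC overlapped below the Tomato populations. Lox, its founding family member, ranged from 0.788 CPM in LC replicate 2 to 46.4 CPM in THC replicate 2. Mfap4, Mfap5 and Dpt, which encode microfibril-associated proteins and dermatopontin, were at or below 2.49 CPM outside THC. In THC, Mfap5 stood at 3.48 and 4.58 CPM and Dpt at 5.41 and 6.73 CPM. Mfap4 reached 14.4 CPM only in THC replicate 2, while THC replicate 1 had 1.55 CPM on 4 counts, within the range of other populations.

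**Figure D2:**
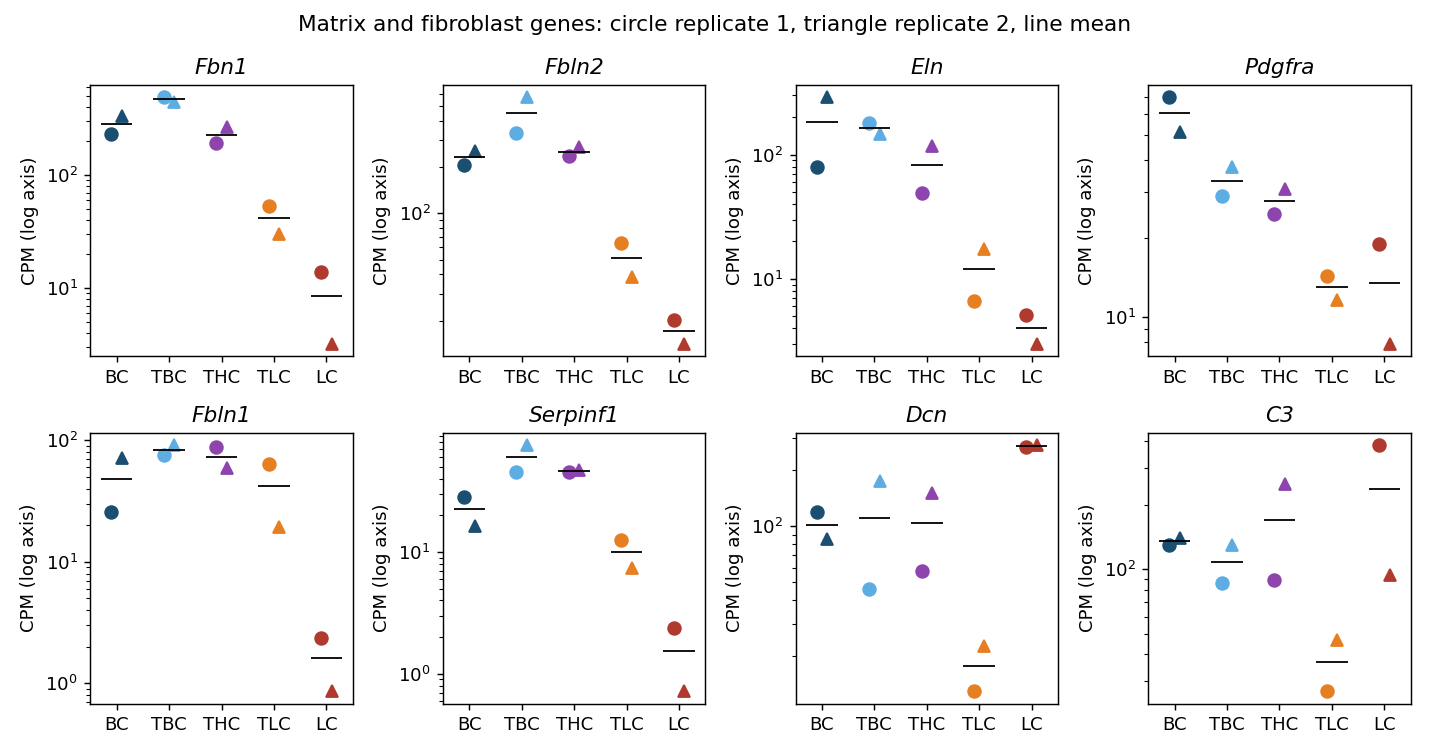
CPM of 8 fibroblast and matrix genes by population on log axes, circle for replicate 1, triangle for replicate 2 and line for the mean. Fbn1, Fbln2, Eln, Fbln1 and Serpinf1 are lowest in LC, whereas Dcn is highest in LC and lowest in TLC.

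Serpinf1 (chr11:75409769-75422701), which encodes the anti-angiogenic factor PEDF, stood at 28.5 and 16.2 CPM in BC, 45.5 and 75.7 in TBC, 45.6 and 47.1 in THC, 12.6 and 7.35 in TLC, and 2.38 and 0.716 in LC. TLC lay between BC and LC with no overlap. Mgp (matrix Gla protein, an inhibitor of calcification, chr6:136872435-136875823) stood at 21.3 and 30.4 CPM in BC, 42.2 and 50.3 in TBC, 55.3 and 40.7 in THC, 18.0 and 5.17 in TLC, and 1.41 and 1.65 in LC, again with LC below TLC and TLC below the rest. C3, the central complement protein, ranged from 26.8 CPM in TLC replicate 1 to 384 CPM in LC replicate 1, but LC replicate 2 had only 93.9 CPM and overlapped BC, TBC and THC in range. Igf1 (insulin-like growth factor 1, chr10:87858265-87937042) stood at 4.69 and 4.24 CPM in BC, 5.83 and 5.12 in TBC, 14.7 and 24.5 in THC, 2.10 and 2.09 in TLC, and 3.57 and 0.788 in LC. THC exceeded all others. Igfbp6 (chr15:102144362-102149511), an IGF binding protein with a preference for IGF2, stood at 1.76 and 3.31 CPM in BC, 3.31 and 2.63 in TBC, 1.16 and 1.48 in THC, 0 and 0.545 in TLC, and 0.216 and 0.143 in LC, the last on 2 counts each. Has1, a hyaluronan synthase, ranged from 3.59 CPM in TBC replicate 2 to 17.2 CPM in BC replicate 1.

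Pdgfrb (chr18:61045150-61085061), the PDGF receptor beta of pericytes, stood at 22.1 and 38.9 CPM in BC, 15.6 and 24.3 in TBC, 28.6 and 31.2 in THC, 3.68 and 4.54 in TLC, and 4.97 and 1.5 in LC. Cspg4 (NG2 proteoglycan, chr9:56865033-56899870) stood at 7.43 and 10.4 CPM in BC, 10.6 and 9.88 in TBC, 10.8 and 7.68 in THC, 1.58 and 1.36 in TLC, and 2.38 and 1.0 in LC. For both genes BC, TBC and THC lay above TLC and LC, which overlapped each other. BC overlapped TBC and THC in both cases, while TBC lay below THC for Pdgfrb. Mcam (chr9:44134469-44142727), an adhesion molecule of mural, endothelial and smooth muscle cells, stood at 161 and 77.4 CPM in BC, 165 and 64.4 in TBC, 120.2 and 60.5 in THC, 84.6 and 36.0 in TLC, and 24.0 and 14.7 in LC. LC was lowest, and the other 4 populations overlapped in part. Nid1 (nidogen 1, chr13:13437551-13512269), which links laminin to collagen IV in basement membranes, stood at 88.6 and 82.8 CPM in BC, 116 and 113 in TBC, 108 and 91.1 in THC, 79.2 and 68.0 in TLC, and 16.8 and 39.0 in LC. Here too LC was below every other library.

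Rgs5 (chr1:169655501-169695813), the most specific pericyte marker listed, stood at 103 and 17.4 CPM in BC, 55.6 and 38.5 in TBC, 179 and 109 in THC, 9.81 and 15.4 in TLC, and 43.5 and 6.73 in LC. Abcc9 (chr6:142587862-142702315), a subunit of the pericyte potassium channel, stood at 20.1 and 2.38 CPM in BC, 8.35 and 6.07 in TBC, 19.7 and 12.1 in THC, 1.93 and 1.45 in TLC, and 7.25 and 0.716 in LC. Des (desmin, chr1:75360329-75368579), an intermediate filament of muscle and pericytes, stood at 4.69 and 1.61 CPM in BC, 4.57 and 3.07 in TBC, 10.8 and 9.70 in THC, 1.05 and 1.09 in TLC, and 3.14 and 1.43 in LC. THC had the highest Rgs5 and Des, and BC and LC each spanned a wide range between their replicates. Sparcl1, a matricellular glycoprotein of vessel walls, ranged from 7.38 CPM in LC replicate 2 to 198 CPM in THC replicate 1, and Vtn, encoding vitronectin, from 0.0716 CPM in LC replicate 2 to 4.69 CPM in BC replicate 1.

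The spread between BC replicates and between LC replicates was wide for Rgs5, Abcc9, Sparcl1 and endothelial genes, and for genes of other cell types. Replicate 1 exceeded replicate 2 for Rgs5 by 5.92-fold in BC and 6.46-fold in LC, for Abcc9 by 8.47-fold and 10.1-fold, and for Sparcl1 by 4.78-fold and 6.33-fold. Pecam1 and Cdh5, endothelial adhesion molecules, did so by 4.41-fold and 4.95-fold in BC and by 4.24-fold and 5.73-fold in LC. Genes of fibroblasts and leukocytes also had replicate 1 above replicate 2 in both populations. The ratios in BC and LC were 3.39 and 2.42 for Aspn, 2.16 and 4.91 for Thy1, and 5.86 and 3.29 for Ptprc. Other genes did not, such as Eln with 0.272 and 1.69. Fbn1 had a ratio of 0.688 in BC and 4.29 in LC, so it shared the LC spread and not that of BC. Taken relative to Pecam1, the highest of the 10 libraries exceeded the lowest by 2.75-fold for Des, 3.59-fold for Rgs5, 3.64-fold for Sparcl1 and 4.48-fold for Abcc9. The other mural genes varied more relative to Pecam1, by 10.4-fold for Vtn, 10.9-fold for Mcam, 13.0-fold for Cspg4 and 23.3-fold for Pdgfrb. The same range was 13.4-fold for Pdgfra, 43.6-fold for Dcn, 48.5-fold for Fbln2, 72.7-fold for Fbn1 and 170.0-fold for Eln. These fibroblast genes were chosen, and the ratio was not taken for the others, such as Igf1, Clec3b, Aspn and Thy1. The ratios therefore do not set mural genes apart from fibroblast genes. These ratios are a description of 10 libraries, and the part of endothelial RNA in the mural values was not tested.

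**Figure D3:**
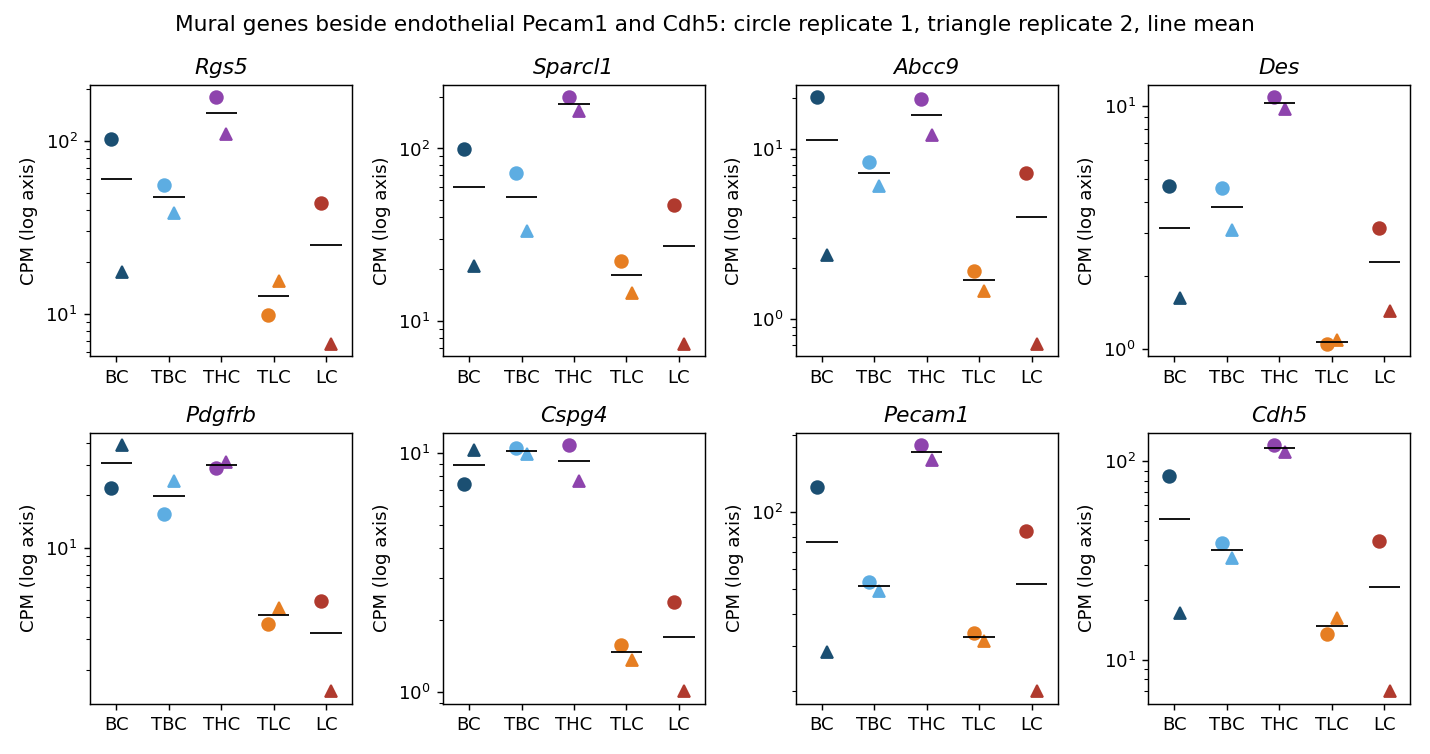
CPM of 6 mural genes and of the endothelial genes Pecam1 and Cdh5 by population on log axes, circle for replicate 1, triangle for replicate 2 and line for the mean. Rgs5, Sparcl1 and Abcc9 show the wide BC and LC spread of Pecam1 and Cdh5, with replicate 1 above replicate 2. Des has the same direction with a narrower spread, whereas Pdgfrb and Cspg4 in BC run the other way.

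The lineage comparison, LC against BC, asks how luminal and basal cells differ without ablation. Lower in luminal cells were 4 of 9 elastic fibre genes, 3 of 7 mural genes, 3 of 7 secreted factors, Pdgfra and the basement membrane gene Nid1. In edgeR's quasi-likelihood test over 19757 genes, with Benjamini-Hochberg adjusted p under 0.05 as the call, 12 of the 33 tested genes were lower and 1 was higher, while 12.5% of all genes tested were called lower and 11.5% higher. The list median was −1.49 on the log2 scale and the median of all genes −0.04. Eln fell by 5.54 (SE 0.82, adjusted p 0.00152), Fbn1 by 5.08 (SE 0.62, adjusted p 0.00036) and Fbln1 fell by 4.98 (SE 0.80, adjusted p 0.00228). Log2 changes of the other lower genes were −4.07 for Mgp, −3.91 for Serpinf1, −3.81 for Igfbp6, −3.75 for Fbln2, −3.28 for Pdgfrb, −2.63 for Mcam, −2.44 for Cspg4, −2.18 for Pdgfra and −1.61 for Nid1. Dpp4 was the higher gene, at 3.35 (SE 0.69, adjusted p 0.00419). Dcn had a value of 1.41 (SE 0.63, adjusted p 0.15) and C3 of 0.82 (SE 0.67, adjusted p 0.443), neither called. With all libraries of the 2 populations, Dcn was called higher by DESeq2 (0.0293) and with only the 2 populations (0.0111). The mural genes Rgs5, Abcc9, Des and Vtn were not called in the main fit. Vtn was called lower without a filter on low counts (0.00909) and with the library number set as a term (0.0499). The call of Mcam was lost without BC replicate 1, LC replicate 1 or LC replicate 2, that of Igfbp6 without BC replicate 2 or LC replicate 2, and that of Dpp4 without BC replicate 2, at adjusted p of 0.0509 to 0.141.

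The same lineage difference after ablation, TLC against TBC, had 10 of 33 genes lower and 1 higher, against 8.02% and 5.59% of all genes tested. The list median was −1.38 and that of all genes 0.03. Eln fell by 3.71 (SE 0.74, adjusted p 0.0117), Fbn1 by 3.5 (SE 0.57, adjusted p 0.00327), Fbln2 by 3.15 (SE 0.34, adjusted p 0.000157) and Cspg4 by 2.80 (SE 0.48, adjusted p 0.00236). Igfbp6, Serpinf1, Dcn, Pdgfrb, Mgp and Pdgfra were the other lower genes, at log2 changes of −3.09, −2.63, −2.62, −2.27, −2.04 and −1.37. Dpp4 was higher by 2.43 (SE 0.69, adjusted p 0.0357). Fbln1, Mcam and Nid1 were not called here, at −1.02, −0.93 and −0.64. Leaving out TBC replicate 1 left 7 of the 11 calls, TLC replicate 1 left 6, TLC replicate 2 left 5 and TBC replicate 2 left 4. Fbln2 and Cspg4 kept their calls in all 4 of these fits, and the highest adjusted p of a lost call was 0.261. With all libraries, Dcn was not called without a filter on low counts or with only the 2 populations, Eln without the filter and Dpp4 by limma-voom (up to 0.186).

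Luminal cells after ablation were then set against luminal cells without it. In TLC against LC, 4 of 9 elastic fibre genes, Serpinf1, Mgp and Nid1 were higher and Dcn was lower. Of 33 genes 7 were higher and 1 was lower, against 4.46% and 3.77% of all genes tested, and the list median was 0.87 beside 0.0 for all genes. Fbln1 was higher by 4.74 (SE 0.80, adjusted p 0.00987), Mgp by 2.86 (SE 0.54, adjusted p 0.0105), Serpinf1 by 2.74 (SE 0.54, adjusted p 0.013) and Fbn1 by 2.31 (SE 0.57, adjusted p 0.0384). Loxl1, Fbln2 and Nid1 were higher by 2.21, 1.57 and 1.39. Dcn fell by 3.91 (SE 0.70, adjusted p 0.0126), and C3 had a value of −2.69 (SE 0.71, adjusted p 0.0561). All 9 elastic fibre genes had positive values, of which 4 were called. The fibroblast receptor Pdgfra had a value of −0.05 (SE 0.37, adjusted p 0.966), and none of the 7 mural genes was called, with Pdgfrb at 0.40, Rgs5 at −0.96 and Cspg4 at −0.18. Mcam had the highest value of the 7, 1.64 (SE 0.63, adjusted p 0.168), with both TLC libraries above both LC libraries. DESeq2 called Mcam (0.0182), as did the fit with the library number set as a term (0.000506). Of 8 listed basal markers, 8 had positive values and 4 were called higher. Their summed level was 1136 and 714 CPM in TLC against 170 and 92.8 CPM in LC, and their part in the matrix values was not tested. Without LC replicate 1 the calls of Dcn, Mgp and Nid1 were lost, without TLC replicate 1 those of Dcn, Fbln2, Fbn1, Loxl1, Serpinf1 and Nid1, without LC replicate 2 all but Nid1, and without TLC replicate 2 those of Dcn, Fbn1, Loxl1 and Nid1. The adjusted p of the lost calls ran from 0.0535 to 0.279, and C3 passed the threshold without LC replicate 2 at 0.0173. C3 was also called lower with all libraries by DESeq2 (0.00664) and limma-voom (0.0404), under the filter of 5 CPM (0.0313) and with upper-quartile factors (0.0477). Ogn, at 1.80 (SE 0.515, adjusted p 0.0537), was called higher by DESeq2 (0.0227), without a filter (0.0158) and with the library number set as a term. With all libraries, Dcn was not called without a filter, Mgp by limma-voom, Fbn1 with the library number set as a term, and Fbn1, Loxl1 and Nid1 with only the 2 populations (up to 0.103).

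**Figure D4:**
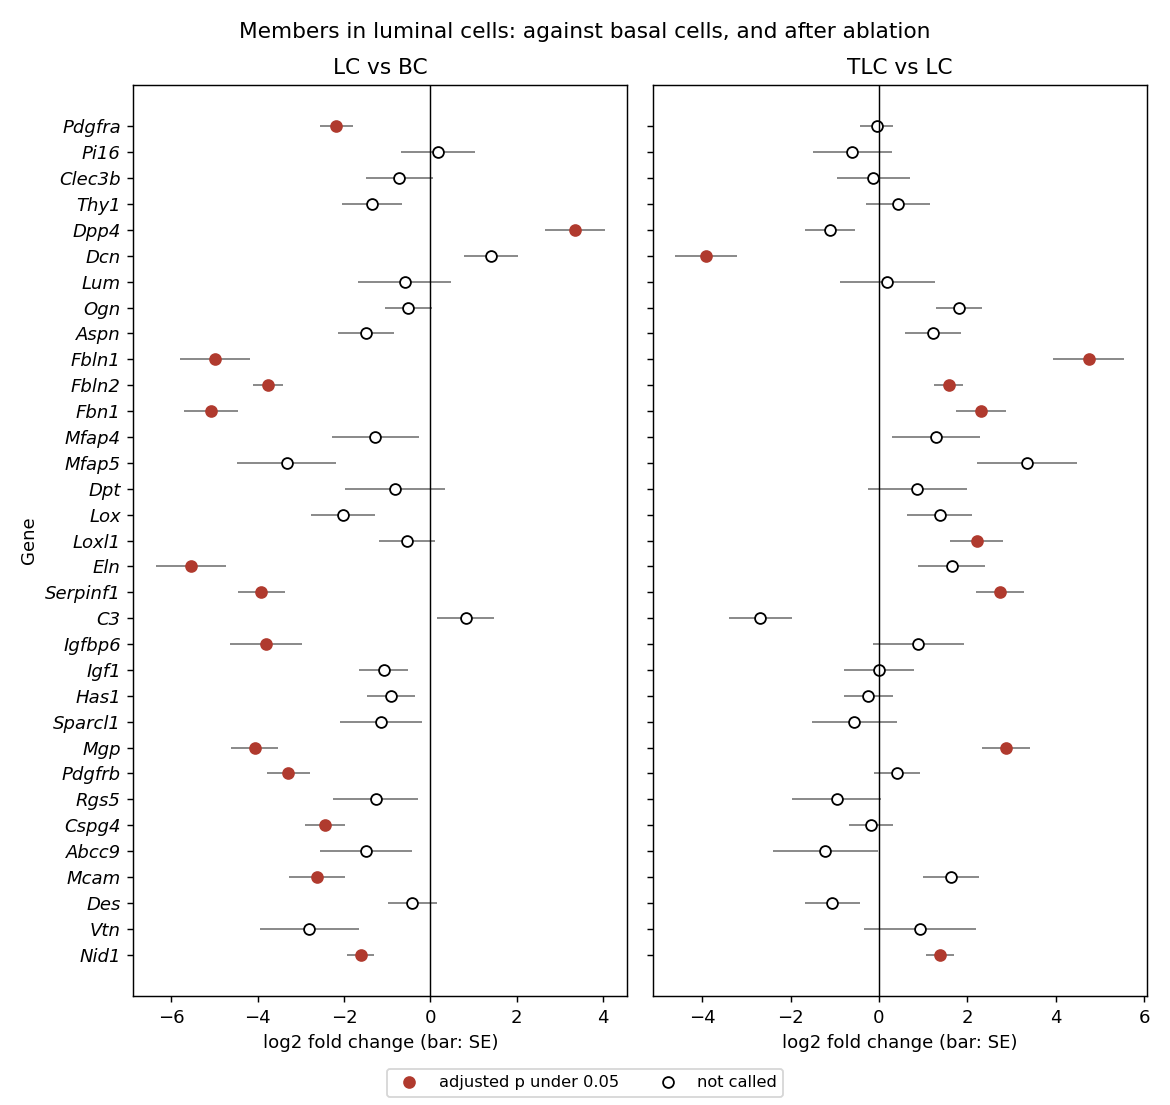
Log2 fold changes of the 33 tested genes with their standard errors, for LC against BC on the left and TLC against LC on the right, filled where adjusted p was under 0.05. Fbln1, Fbln2, Fbn1, Serpinf1, Mgp and Nid1 are called on the negative side on the left and on the positive side on the right, 2 comparisons that share the LC libraries.

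Basal cells showed no called change. In TBC against BC, 0 of 33 genes were called by edgeR in either direction, where 0.0% of all genes tested were called higher and 0.0% lower. DESeq2 and limma-voom also called 0, the fit without a filter called Fbln2 and Serpinf1, and 6 genes had an unadjusted p under 0.05. These were Serpinf1 at 1.46, Fbln2 at 0.97, Loxl1 at 1.68, Ogn at 1.44, Has1 at −1.37 and Pdgfra at −0.85. The list median was 0.26 and that of all genes −0.03.

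The difference between the ablation contrasts of the lineages, (TLC minus LC) minus (TBC minus BC), was tested directly. Of 33 genes 0 were called by edgeR, 6 had an unadjusted p under 0.05, and 0.552% of all genes were called higher and 0.359% lower. Dcn had the lowest value, −4.03 (SE 0.91, adjusted p 0.112), and Fbln1 the highest, 3.97 (SE 1.0, adjusted p 0.149). DESeq2 called these 2, and limma-voom called 0. Mfap5, C3, Mgp and Nid1 were the others under 0.05 unadjusted, at 3.46, −2.37, 2.03 and 0.97. The list median was 0.71 and that of all genes 0.05. In single fits that left out a library, Fbn1 passed without LC replicate 1, Dcn without TBC replicate 1, Nid1 without LC replicate 2 and Mgp without TLC replicate 2, at adjusted p of 0.0193 to 0.0479. Mcam was called with the library number set as a term (1.66, adjusted p 0.0084), beside 1.69 (SE 0.87, adjusted p 0.586) without it, and Mgp without a filter (adjusted p 0.00242).

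Many of these genes had their highest mean level in the THC libraries, 18 in all, which does not show which cells in them carried the transcripts. In THC against TLC all 33 tested genes had positive values, with a list median of 2.31 beside 0.02 for all genes. The test called 6 higher and 0 lower, against 1.52% and 0.0911% of all genes tested, and 27 genes had an unadjusted p under 0.05. Called were Igf1 at 3.24 (SE 0.59, adjusted p 0.0216), Des at 3.23 (SE 0.62, adjusted p 0.0269), Pdgfrb at 2.85 (SE 0.50, adjusted p 0.0216), Cspg4 at 2.63 (SE 0.48, adjusted p 0.0235), Fbln2 at 2.31 (SE 0.33, adjusted p 0.00758) and Serpinf1 at 2.24 (SE 0.47, adjusted p 0.0471). Rgs5 had a value of 3.48 (SE 1.07, adjusted p 0.213) and Sparcl1 of 3.32 (SE 1.02, adjusted p 0.214). Neither was called in this fit, but both were called higher by DESeq2 and with only the 2 populations. Without THC replicate 1 4 of the 6 calls were lost, without TLC replicate 1 5, and without THC replicate 2 or TLC replicate 2 all 6, with adjusted p of 0.0542 to 0.372. Serpinf1 was also lost with RLE and upper-quartile factors (0.055 and 0.054). Of 8 listed basal markers, 8 had positive values in THC against TLC, with a median of 3.05. Of these, 6 were called higher and 0 lower. In THC against TBC 0 of the 8 were positive, with a median of −1.59 and 4 called lower. The part of basal RNA in the values of the 33 tested genes was not tested.

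In THC against TBC only Dpp4 was called, higher by 3.32 (SE 0.68, adjusted p 0.0221), 1 gene of 33 against 2.57% of all genes called higher and 1.14% lower. Without any 1 of the 4 libraries this call was lost, at adjusted p of 0.0546 to 0.15. The list median was 1.08 and that of all genes 0.03, and 13 genes had an unadjusted p under 0.05. Among these Igf1 had 1.87 (SE 0.53, adjusted p 0.0843), Aspn 1.69, Lox 1.81 and Mfap4 2.37, and Fbln2 had −0.84 (SE 0.31, adjusted p 0.189). The THC and TBC libraries overlapped for Mfap4. With all libraries, Igf1 was called higher by DESeq2 (0.0196) and limma-voom (0.0289). It was also called without a filter, with the library number set as a term and with only the 2 populations. The elastic fibre list was split, with 5 of 9 values positive and Fbn1, Eln, Fbln2 and Fbln1 negative. Markers of other cells were counted in THC as well. The endothelial list was positive for 12 of 12 genes against TBC and against TLC, with medians of 1.7 and 2.8 and 1 gene called in each. The immune list was positive for 11 of 11, with medians of 1.68 and 1.82, which is a count of signs and not of calls. The Schwann cell list was positive for 2 of 5 in each, with medians of −0.11 and −0.07, and the 1 tested adipocyte gene had −2.68 and 4.26. All 6 adipocyte genes together summed to 0.387 and 0.337 CPM in THC and to 0.525 and 0.545 CPM in TLC. The adipocyte value against TLC thus rests on few reads. The 9 tested pericyte markers outside the 34 genes had 8 and 7 positive values, with medians of 1.5 and 1.8. Of these, 2 were called higher against TBC and 0 against TLC. The 18 fibroblast markers outside the list had 13 and 17 positive values, with medians of 1.16 and 2.58, and Ptprc of leukocytes stood at 22.0 and 12.1 CPM in THC against 0.788 to 5.47 CPM elsewhere. Their part in the values of the 34 genes was not tested.

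**Figure D5:**
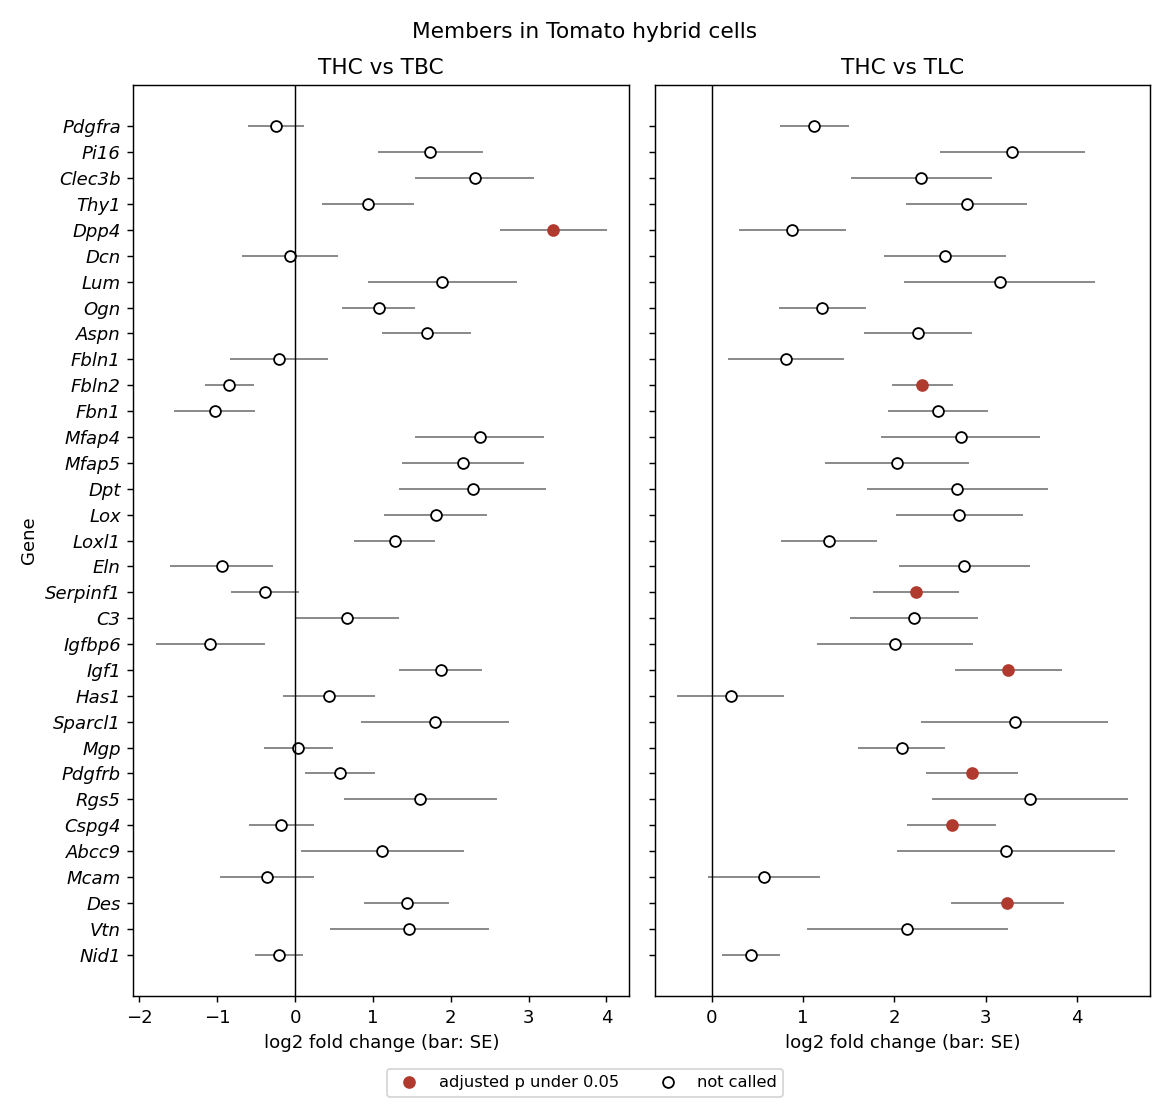
Log2 fold changes of the 33 tested genes with their standard errors, for THC against TBC on the left and THC against TLC on the right, filled where adjusted p was under 0.05. Dpp4 is the filled point on the left, and all 33 points on the right lie above 0, with 6 filled.

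Partners of these genes were counted in lists of 8 pathways or families. Each count stands beside the share of all tested genes called in the same comparison. Those shares were 12.5% lower and 11.5% higher in LC against BC, and 8.02% and 5.59% in TLC against TBC. They were 3.77% lower and 4.46% higher in TLC against LC. For THC they were 1.14% and 2.57% against TBC, and 0.0911% and 1.52% against TLC. Of 14 tested elastic fibre partners, 6 were lower and 1 higher in LC than in BC, 6 lower and 1 higher in TLC than in TBC, and 2 higher and 0 lower in TLC than in LC. Hmcn1 (hemicentin 1, a relative of the fibulins) fell by 6.40 in LC against BC (SE 0.41, adjusted p 3.28e-06). It was higher by 4.08 in TLC than in LC (SE 0.39, adjusted p 0.000313), and both calls held under all 12 alternatives. Fbln5, needed for elastic fibre assembly, was higher by 3.18 in TLC than in LC (adjusted p 0.0135), but not without TLC replicate 1 or LC replicate 2 (up to 0.0971). Of 3 LOX family enzymes, Loxl3 was lower in LC than in BC (−3.14) and in TLC than in TBC (−1.96). It was higher in TLC than in LC (1.28, adjusted p 0.0395), a call lost without LC replicate 1, TLC replicate 1 or LC replicate 2, by limma-voom and with only the 2 populations (up to 0.258). In THC against TBC 1 elastic fibre partner was lower, Ltbp2 at −1.99, a call lost without either THC library. In THC against TLC 2 were higher, Ltbp2 and Hmcn1 at 2.28 and 1.70, neither called without TLC replicate 1, THC replicate 2 or TLC replicate 2, and Hmcn1 also not without THC replicate 1.

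Among 6 tested leucine-rich proteoglycans, 4 were lower in LC than in BC and 3 in TLC than in TBC, with none higher. Bgn (biglycan, the closest relative of decorin) fell by 5.17 in LC against BC (SE 0.68, adjusted p 0.000556), where Dcn had a positive value. Bgn stood at 488 and 711 CPM in BC, 617 and 532 in TBC, 226 and 345 in THC, 38.5 and 43.5 in TLC, and 28.3 and 5.52 in LC. LC and TLC were thus both far below BC and TBC for Bgn, while for Dcn they lay at opposite ends. Prelp, a proteoglycan of basement membranes, fell by 2.71 in LC against BC and by 1.96 in TLC against TBC. None of the 6 was called in TLC against LC.

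Of 4 PDGF ligands, Pdgfa and Pdgfc were lower in LC than in BC, at log2 changes of −1.87 and −1.95, and Pdgfa, Pdgfb and Pdgfc were lower in TLC than in TBC, at −2.32, −2.73 and −1.42. The call of Pdgfc in TLC against TBC was lost without TBC replicate 1 or TLC replicate 2 (up to 0.124). No ligand was called in the other comparisons. Of 8 IGF axis genes, 3 were lower and 1 was higher in LC than in BC, 4 were lower in TLC than in TBC, 1 was lower in TLC than in LC and 2 were higher in THC than in TLC. Igfbp5, a binding protein of involuting gland, fell by 2.71 in TLC against TBC (SE 0.41, adjusted p 0.00117) and by 2.27 in TLC against LC (SE 0.40, adjusted p 0.00621), the latter lost without TLC replicate 1 (0.0647).

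Of 9 tested complement genes, 3 were lower in TLC than in LC and 0 higher. C1ra, C4b and Cd55 had −1.91, −1.37 and −1.78, and C3 lay in the same direction without being called. The calls of all 3 were lost without TLC replicate 1, and that of Cd55 also without LC replicate 1 or TLC replicate 2 (up to 0.191). In LC against BC 3 complement genes were lower and 1 higher, and in TLC against TBC 3 were lower. In TBC against BC, where 0.0% of all genes were called, 0 complement genes were called. Still, only 1 of the 9 had a positive value there, and the list median was −0.91. C4b stood at 702 and 578 CPM in BC and 292 and 247 CPM in TBC. C4b was lower in THC than in TBC (−1.38) and Serping1, the C1 inhibitor, higher in THC than in TLC (2.64). The first was lost without each of the 4 libraries (up to 0.111), the second without either TLC library (up to 0.102).

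Of 8 hyaluronan genes 3 were higher in TLC than in LC, namely the matrix proteoglycan Vcan at 4.41, the synthase Has2 at 4.09 and the receptor Hmmr, also a spindle protein of dividing cells, at 3.30. Has2 stood at 93.1 and 101 CPM in BC, 231 and 243 in TBC, 251 and 139 in THC, 90.9 and 13.0 in TLC, and 4.65 and 1.58 in LC. Each of these 3 calls was lost without TLC replicate 1, and also without LC replicate 2 for Vcan, LC replicate 1 for Hmmr and either LC library for Has2, with adjusted p up to 0.208. Vcan was also lost without a filter, and Has2 without a filter, by limma-voom and with only the 2 populations. The listed synthase Has1, at a log2 value of −0.24, was not called. Of 9 basement membrane genes 3 were higher in TLC than in LC. These were Lama4 at 1.80 (SE 0.27, adjusted p 0.00279), Hspg2 (perlecan) at 1.59 and Sparc at 2.45, beside Nid1 at 1.39. Lama4 was called under all 12 alternatives, whereas Hspg2 was lost without LC replicate 2 (0.0528) and Sparc without TLC replicate 1 or with only the 2 populations (up to 0.125). In LC against BC 4 basement membrane genes were lower and 2 higher, Sparc fell by 5.76 and Hspg2 fell by 3.62 there. Npnt (nephronectin, an integrin ligand) was higher by 2.82 in LC than in BC and by 3.05 in TLC than in TBC.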

How the data were processed

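Each library was deposited by the authors as whole-number HTSeq counts per Ensembl gene. STAR is named besides HTSeq, with GRCm38 (mm10) as the build, per the submitters' processing notes. For tool versions, annotation release and use of strand, the sources used here give nothing. Per the labels' protocols, RNA came from cells sorted after antibody staining and libraries from a NuGen kit sequenced on an Illumina instrument.

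The summary lines that name no gene held 12.58% to 30.82% of reads as without feature, 2.71% to 3.48% as ambiguous and 14.58% to 43.0% as not uniquely aligned, and were left out. The 43.0% belonged to THC replicate 1, also the library with the fewest gene counts, and every other library was at or below 22.39%. Of 49671 identifiers, 49412 were matched in GENCODE M21. Genes passing filterByExpr of edgeR, 19757, were tested with TMM factors and the robust quasi-likelihood F-test on all 10 libraries with 1 coefficient per population (5 residual degrees of freedom), with a call at p under 0.05 after Benjamini-Hochberg adjustment. CPM used the TMM factors, and RPKM added exonic length. Of the 34 genes 33 passed the filter. Replicates were numbered in the order of the sample records and not treated as pairs.

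The 34 genes and the lists of partners and cell markers were chosen with earlier results of these data known. Values in every library are given for genes called in any comparison and for defining markers, and up to 3 called genes per partner list are named by smallest adjusted p. Bgn and Has2 were given per library after their values were seen. The sum over 25 fibroblast genes leaves out Sparcl1 and Nid1, which were summed with the 7 mural genes. Alternatives were DESeq2, limma-voom, factors by RLE or by upper quartile, no filter on low counts, a minimum of 5 CPM in 2 libraries, a term for the library number set, only the 2 populations compared (without THC for the difference of contrasts), and leaving out each library. The fits were tested on simulated data. Versions were DESeq2 1.42.0, limma 3.58.1 and edgeR 4.0.16, under R 4.3.3.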

Additional observations from a re-analysis of the deposited data

Results flagged for a closer look

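Hmcn1, an elastic fibre partner outside the 34 genes, was called in the test of the difference between the ablation contrasts of the luminal and the basal lineage. Its log2 difference, (TLC minus LC) minus (TBC minus BC), was 3.66 (SE 0.49, edgeR adjusted p 0.00748), and it was called under all 16 alternatives, at adjusted p up to 0.0351. Hmcn1 stood at 198 and 265 CPM in BC, 387 and 236 in TBC, 56.4 and 37.0 in TLC, and 3.68 and 1.93 in LC. LC was lowest by far, and TBC overlapped BC.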

How the results depend on the processing

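No called value of the 34 genes or the named partners changed sign under any alternative. Counts of called genes in LC against BC stayed between 11 and 16 beside 13. Elsewhere counts moved by over 1.5 times as follows. TLC against TBC, 11 genes, gave 4 to 7 with a library left out. TBC against BC, 0 genes, gave 2 without a filter (Fbln2 and Serpinf1). TLC against LC, 8 genes, gave 5 with only the 2 populations and 2 to 5 with a library left out. THC against TBC, 1 gene, gave 2 with DESeq2, 2 with limma-voom, 7 without a filter, 3 with the library number set as a term, 7 with only the 2 populations, and 0 to 1 with a library left out. THC against TLC, 6 genes, gave 15 with DESeq2, 16 without a filter, 15 with only the 2 populations, and 0 to 3 with a library left out. The difference of contrasts, 0 genes, gave 2 with DESeq2, 1 without a filter, 1 with the library number set as a term, and 0 to 1 with a library left out. The cause was not tested. Fits without a library have fewer samples and degrees of freedom, and a population left with 1 library is assumed to vary like the others. Mean summed levels of the 25 fibroblast genes and of the other 9 moved by less than 1 SD of the replicates with RLE and upper-quartile factors. With 2 libraries a population, Pi16, Clec3b, Mfap5, Dpt, Vtn, Igfbp6 and Dpp4 rest on few counts in several libraries. No paired analysis was possible because the labels tie no library of one population to one of another. The library number set, which holds 1 library of each population, was fitted as a term in its place.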
